A study of Mus musculus with 16 samples.

Results

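Ligands and receptors of the VEGF and angiopoietin pathways were followed across the cell types of the mouse hypothalamus and preoptic area. The 10 genes were chosen by symbol from the 28683 genes listed: the ligands *Vegfa*, *Vegfb* and *Vegfc*, the VEGF receptors *Flt1* and *Kdr*, the co-receptor *Nrp1*, the angiopoietins *Angpt1* and *Angpt2*, the angiopoietin receptor *Tek* (Tie2) and its partner *Tie1*. Single cells of 16 female mice were profiled by Drop-seq, in which barcoded beads mark the 3′ ends of transcripts by cell and by molecule (UMI, a unique molecular identifier), with 1 library per mouse. All mice were of a CD-1;129P2 mixed background, 8 to 10 weeks old when treatment began, and received 28 daily subcutaneous injections, the last of them shortly before the tissue was taken. Wild-type mice, which were littermates without Cre, received oil (WT_oil, n = 3) or tamoxifen at 0.1 mg/kg (WT_tamoxifen, n = 5), a ligand of estrogen receptors. Esr1cKO mice carried the floxed *Esr1* allele, which encodes estrogen receptor alpha, together with an *Nkx2-1*-Cre transgene, and received oil (Esr1cKO_oil, n = 4) or tamoxifen at the same dose (Esr1cKO_tamoxifen, n = 4). Both solutions were made in corn oil with ethanol, at a higher stated ethanol content in the vehicle than in the tamoxifen solution. The Cre driver acts in cells of the *Nkx2-1* lineage, so the allele is not recombined by it in cells from other lineages, and which cell types of the vessel wall it reaches was not tested.

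The files held 2634253 to 8038158 UMIs per library, and 55675 cells passed the filter, with a median of 563 to 819 UMIs per cell in a library. The cells fell into 9 types, and 8 of them were higher than the other cells in every marker of the list fixed for them, while polydendrocytes were higher in 9 of 10. The 10 genes were left out of the genes used for clustering, although genes that vary together with them were used, so the adjusted p-values between cell types describe how regularly a difference recurred over the 16 libraries. Vessels were represented by 7173 endothelial cells, 2367 mural cells and 969 fibroblasts. The endothelial class also carried RNA of neighbouring cells: the summed level of the 12 mural markers was 4418 to 9849 CPM (counts-per-million, UMIs of a gene scaled to the total of the summed cells of a library), against 25362 to 41591 CPM in mural cells, and the part of this RNA in the results below was not tested. The libraries of WT_oil replicate 3 and Esr1cKO_tamoxifen replicate 3 stood apart from the other 14 on the first principal component (61.6% of the variance), and their files hold no barcode with under 100 genes where the others start at 20 genes. Of the kept barcodes, 520 occurred in more than 1 library, mostly among WT_tamoxifen replicates 4 and 5, Esr1cKO_oil replicate 4 and Esr1cKO_tamoxifen replicate 4, and results without them stand under the processing alternatives. *Esr1* in neurons had a median of 49.6 CPM in WT_oil and 47.1 CPM in Esr1cKO_oil. Where the 3′ tags lie relative to the deleted part was not examined, so these levels do not check the deletion. The study also found no significant drop of *Esr1* transcripts, but by staining it reports loss of the receptor protein in the medial preoptic area and in the ventromedial and arcuate nuclei.

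VEGF-A is secreted by parenchymal cells, is induced by hypoxia, and binds the tyrosine kinase receptors VEGFR1 (*Flt1*), which acts largely as a decoy, and VEGFR2 (*Kdr*), the main signalling receptor of endothelial cells. Neuropilin-1 (*Nrp1*) is a co-receptor that also binds class 3 semaphorins in axons. Angiopoietin-1 from perivascular cells activates Tie2 and stabilises vessels, whereas angiopoietin-2 is a context-dependent antagonist. In the hypothalamus, the median eminence has a permeable, fenestrated capillary bed that is bordered by tanycytes, the elongated glia of the third ventricle floor.

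The receptors were endothelial genes. *Flt1*, *Kdr*, *Tek* and *Tie1* each had 86.4% to 94.8% of all their UMIs in endothelial cells, a class that made up 12.9% of the cells. Of the 9 genes that passed the filter on low counts in this class, 6 were higher in endothelial cells than in the other cells of the same library, where 36.2% of 12435 genes were higher, and 2 were lower, where 40.3% were. The median log2 fold change of these 9 genes was 3.52, against -0.05 over all genes tested.

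*Flt1* (chr5:147561604-147726011, GRCm38, minus strand) ranged from 3294 to 4999 CPM over the 16 endothelial samples, with a median of 4160 CPM. All other cells of the same libraries had 22.2 to 65.0 CPM of *Flt1*, so the 2 sets did not overlap, and the difference was 7.07 on the log2 scale (SE 0.08, edgeR adjusted p = 1.68e-33). At least 1 *Flt1* UMI was found in 90.03% of endothelial cells (95% Clopper-Pearson interval 89.3 to 90.7%), against 2.22% of astrocytes. *Flt1* was next highest in mural cells, at 135.9 ± 83.9 CPM (SD, n = 16), and fibroblasts, at 113.0 ± 52.7 CPM, which did not differ from each other (adjusted p = 0.425). Both lay below the 230.6 ± 76.2 CPM (SD, n = 14) of barcodes with at most 100 genes, whose UMIs were taken as a measure of free RNA in the droplets. That level does not give the share of free RNA in a cell, so *Flt1* outside endothelial cells was not told apart from background.

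*Kdr* (chr5:75932827-75978458, minus strand) had 246.4 to 531.0 CPM in endothelial cells, with a median of 377.9 CPM, and 2.72 to 11.7 CPM in all other cells, a difference of 6.20 (SE 0.11, adjusted p = 1.52e-29). *Tek* (chr4:94739289-94874976, plus strand) had 341.5 to 584.0 CPM in endothelial cells, with a median of 512.5 CPM, and 4.11 to 29.7 CPM elsewhere, a difference of 5.50 (SE 0.12, adjusted p = 1.77e-27). *Tie1* (chr4:118471191-118490061, minus strand) had 141.8 to 272.8 CPM, with a median of 208.4 CPM, and 1.30 to 4.91 CPM elsewhere, a difference of 6.50 (SE 0.11, adjusted p = 6.82e-30). For these 3 receptors, every endothelial sample was above every sample of the other cells, and the means of all other types were 24.1 CPM or less. Shares of endothelial cells with a UMI were 28.3% for *Kdr*, 33.7% for *Tek* and 18.8% for *Tie1*, against 0.265%, 0.5677% and 0.192% of astrocytes, at median depths of 733 and 481 UMIs.

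**Figure D1:**
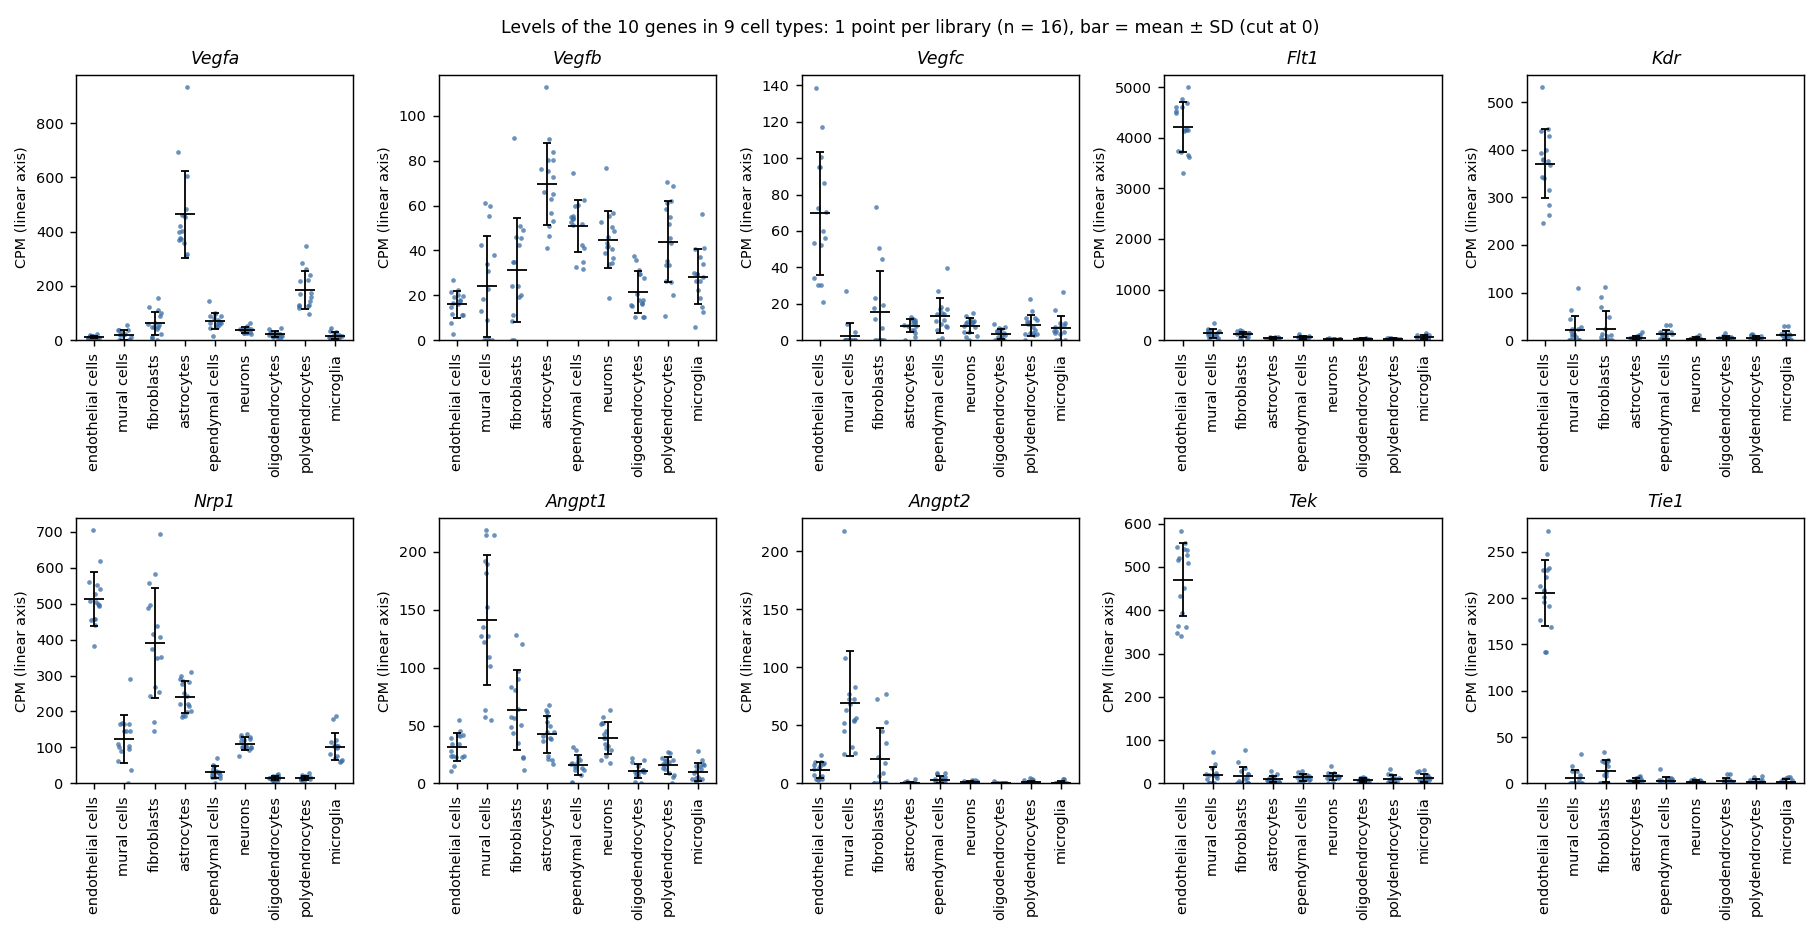
Levels of the 10 genes in the 9 cell types, in CPM on the vertical axis; each point is 1 library and each bar the mean ± SD over 16 libraries, cut at 0. *Flt1*, *Kdr*, *Tek* and *Tie1* stand high in endothelial cells alone, *Vegfa* is highest in astrocytes, and *Angpt1* and *Angpt2* are highest in mural cells.

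The start regions of 3 of these receptors are shown because the genes share their cell type while their promoter windows hold different matches of the strings searched. The 250 bases before the RefSeq start (GRCm38) are written 5′ to 3′ on the strand of the gene, and capitals mark the letters searched on both strands. These were AGGAAG or CGGAAG, strings that extend the GGAA core bound by ETS factors, ACGTG or GCGTG, the core of the hypoxia response element, and TATAAA, the TATA box.
Flt1, chr5:147726012-147726261, minus strand: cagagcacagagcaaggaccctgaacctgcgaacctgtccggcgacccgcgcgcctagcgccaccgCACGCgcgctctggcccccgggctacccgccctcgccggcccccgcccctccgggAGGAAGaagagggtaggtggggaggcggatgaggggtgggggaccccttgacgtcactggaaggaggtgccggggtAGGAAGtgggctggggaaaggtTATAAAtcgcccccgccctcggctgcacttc
Kdr, chr5:75978456-75978705, minus strand: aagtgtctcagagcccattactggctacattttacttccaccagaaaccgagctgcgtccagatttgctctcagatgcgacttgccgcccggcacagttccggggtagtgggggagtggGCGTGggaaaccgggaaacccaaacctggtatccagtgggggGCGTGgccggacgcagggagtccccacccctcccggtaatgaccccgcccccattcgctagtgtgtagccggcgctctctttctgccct
Tek, chr4:94739039-94739288, plus strand: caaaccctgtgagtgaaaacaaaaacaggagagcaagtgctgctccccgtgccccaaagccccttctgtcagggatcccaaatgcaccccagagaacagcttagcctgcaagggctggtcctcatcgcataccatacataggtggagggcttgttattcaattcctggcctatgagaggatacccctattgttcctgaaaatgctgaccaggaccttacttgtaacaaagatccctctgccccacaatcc
The *Flt1* window held 2 matches of the ETS strings, 1 of the hypoxia core and 1 TATA box, none overlapping another. The *Kdr* window held 2 matches of the hypoxia core and no ETS string, and the *Tek* window held none of the strings searched. The shorter GGAA was not searched, and it occurs in the *Kdr* and *Tek* windows when both strands are read. The *Tie1* window, not printed, held 2 matches of the ETS strings and none of the others. Such letters are common: of the 32851 promoter windows of this length, 39.2% held an ETS string, 38.6% the hypoxia core and 12.4% the TATA box. A window was given for 8 of the 10 genes.

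*Nrp1* (chr8:128358604-128503363, plus strand) was expressed more widely than the receptors it assists. Endothelial cells were highest, at 381.4 to 703.0 CPM with a median of 501.9 CPM, and were 2.52 above the other cells on the log2 scale (SE 0.06, adjusted p = 1.74e-26). Fibroblasts followed at 389.5 ± 152.5 CPM (SD, n = 16) and astrocytes at 240.7 ± 44.0 CPM, each below its predecessor in the order (adjusted p = 6.89e-08 and 0.000676) and both above the other cells. Mural cells, at 124.5 ± 66.5 CPM, were below astrocytes (adjusted p = 9.55e-12) and did not differ from neurons, at 110.8 ± 17.3 CPM (adjusted p = 0.16). The barcodes with few genes had 95.6 ± 28.2 CPM. Oligodendrocytes and polydendrocytes, the precursors of oligodendrocytes, were lowest, at 14.8 and 16.1 CPM, below that background. Endothelial cells held 43.6% of the *Nrp1* UMIs, neurons 21.2% and astrocytes 20.6%.

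**Figure D2:**
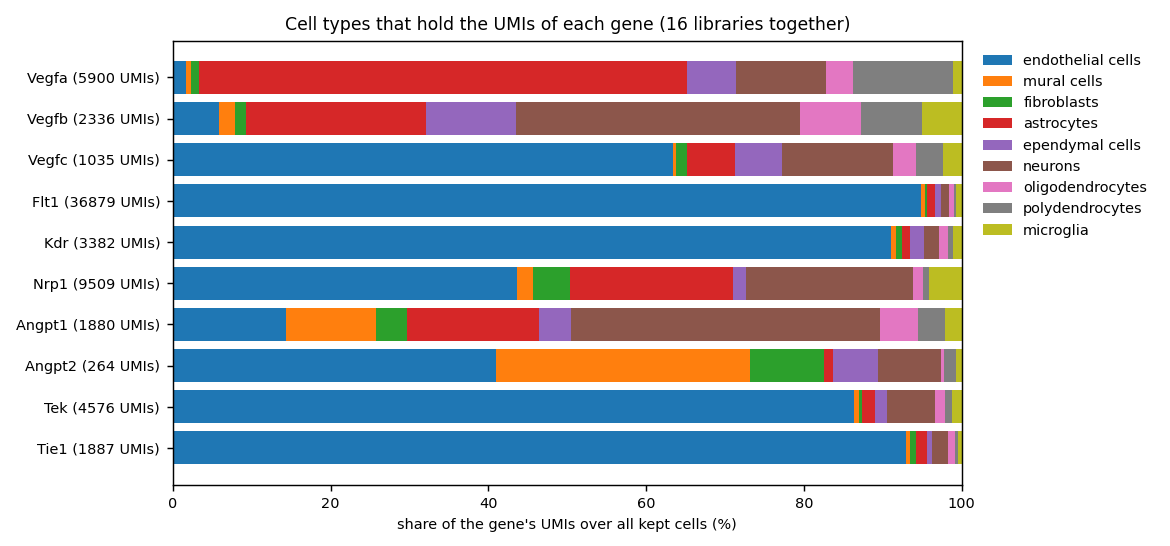
Share of the UMIs of each gene, in percent, that lay in each of the 9 cell types, summed over 16 libraries, with 1 stacked bar per gene. Endothelial cells hold 94.8% of the *Flt1* UMIs and 43.6% of the *Nrp1* UMIs, and astrocytes hold 61.9% of the *Vegfa* UMIs.

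Of the VEGF ligands, *Vegfa* was highest in astrocytes, followed by polydendrocytes, but not high in all glia. *Vegfa* (chr17:46016993-46032369, minus strand) had 309.9 to 932.9 CPM in astrocytes, with a median of 413.0 CPM, and 32.9 to 69.6 CPM in all other cells. The 16 astrocyte samples did not overlap with the other cells, and the difference was 3.56 on the log2 scale (SE 0.08, adjusted p = 4.57e-32). The highest astrocyte samples, 932.9 and 695.6 CPM, came from the 2 libraries that stood apart. Of the 9 genes tested in astrocytes, 4 were higher than in the other cells (31.9% of all genes) and 5 lower (41.5%). *Vegfa* in polydendrocytes was 183.9 ± 70.7 CPM (SD, n = 16), above the other cells of all 16 libraries (log2 fold change 0.91, SE 0.10, adjusted p = 3.21e-11) and below astrocytes (adjusted p = 3.26e-35). Ependymal cells, at 72.0 ± 29.3 CPM, and fibroblasts, at 61.6 ± 43.6 CPM, came next and did not differ from each other (adjusted p = 0.20). Neurons had 37.2 ± 10.7 CPM, close to the 35.1 ± 13.5 CPM of the barcodes with few genes. Oligodendrocytes and microglia, at means of 21.7 and 16.3 CPM, were below that background. *Vegfa* was lowest in endothelial cells, at 5.97 to 22.8 CPM with a median of 9.98 CPM, where it was below the other cells in 16 of 16 libraries (log2 fold change -3.03, SE 0.12, adjusted p = 1.56e-20).

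*Vegfb* (chr19:6982473-6987651, minus strand), which binds VEGFR1, differed less between types. It ranged from 40.8 to 112.7 CPM in astrocytes, with a median of 69.2 CPM, and from 22.04 to 46.7 CPM in the other cells, an overlapping range with a difference of 1.15 (SE 0.09, adjusted p = 1.57e-14). Ependymal cells were lower than astrocytes, at 50.9 ± 11.6 CPM (SD, n = 16; adjusted p = 0.000232), and about as high as the barcodes with few genes, at 51.0 ± 18.1 CPM. The neurons, polydendrocytes, fibroblasts, microglia, mural cells and oligodendrocytes that followed in the order did not differ between neighbours, and endothelial cells were lowest, at 16.1 ± 6.0 CPM.

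*Vegfc* (chr8:54077606-54187096, plus strand), a ligand of VEGFR3 best known from lymphatic vessels, was endothelial. It had 21.1 to 138.7 CPM in endothelial cells, with a median of 65.2 CPM, and 0.60 to 11.9 CPM in the other cells. Endothelial cells were higher in all 16 libraries, without overlap, by 3.52 on the log2 scale (SE 0.21, adjusted p = 3.54e-16). All types below were at 15.4 CPM or less, against 12.6 ± 10.03 CPM (SD, n = 14) in the barcodes with few genes, and no neighbours among them differed.

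The angiopoietins were highest in mural cells, the pericytes and smooth muscle cells of vessels. Of the 9 genes tested there, 2 were higher, where 17.1% of 11430 genes were higher, and 5 were lower, where 34.1% were. *Angpt2* passed the filter on low counts in this type alone, through its level in mural cells, so nothing is read from the count of 2. *Angpt1* (chr15:42424723-42676977, minus strand) had 54.9 to 218.3 CPM in mural cells, with a median of 131.0 CPM, and 16.2 to 42.6 CPM in the other cells. The 2 sets did not overlap, with a difference of 2.46 (SE 0.16, adjusted p = 2.94e-50). Fibroblasts were lower than mural cells, at 63.4 ± 34.4 CPM (SD, n = 16; adjusted p = 2.85e-06), and astrocytes, neurons and endothelial cells followed at 42.4, 39.4 and 31.3 CPM without a difference between neighbours, close to the 30.3 ± 13.3 CPM of the barcodes with few genes. An antisense gene, *Gm17473*, overlaps *Angpt1*, and whether the counting used strand is not given in the sources used here. Neurons, with 9147 cells and a median of 1489 UMIs per cell, held 39.1% of the *Angpt1* UMIs, and mural cells 11.4%.

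*Angpt2* (chr8:18690263-18741562, minus strand) was the rarest of the genes, with 264 UMIs in all. Mural cells had 25.3 to 217.7 CPM, with a median of 60.0 CPM, from 85 UMIs, against 0.59 to 5.56 CPM in the other cells, a difference of 4.24 (SE 0.26) without overlap. The gene passed the filter through its level in these cells, so no p-value is read from this fit. Mural cells were above fibroblasts, at 21.1 ± 27.1 CPM, by 1.34 on the log2 scale (SE 0.32), and no p-value is read from this comparison either. Endothelial cells held 40.9% of the UMIs at 11.7 ± 6.9 CPM, which did not differ from fibroblasts (adjusted p = 0.13) and was above ependymal cells, at 3.24 ± 3.15 CPM (adjusted p = 1.16e-09). With no filter on low counts, the difference from the other cells was 4.05 (SE 0.22) in mural cells, 2.05 (SE 0.23, edgeR adjusted p = 1.60e-11) in endothelial cells and 2.28 (SE 0.37, edgeR adjusted p = 4.65e-07) in fibroblasts. The endothelial class also carried mural RNA, and the part of this RNA in its *Angpt2* level was not tested. The barcodes with few genes held 2 *Angpt2* UMIs in 14 libraries. *Angpt2* lies within *Mcph1*, which is on the other strand, and *Mcph1* was not high in mural cells, at 9.0 ± 8.6 CPM, or endothelial cells, at 17.9 ± 8.4 CPM.

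The calls between 2 types given above came from 1 fit of 10499 genes, in which the share called in either direction was 44.6% between endothelial cells and fibroblasts, 70.7% between endothelial and ependymal cells, 30.4% between mural cells and fibroblasts, 58.4% between mural cells and astrocytes, 54.4% between fibroblasts and astrocytes, 61.0% between astrocytes and polydendrocytes, and 65.5% between astrocytes and ependymal cells. In the other types few of the 9 genes tested were higher than in the remaining cells. The numbers higher and lower were 2 and 5 in fibroblasts (13.8% and 34.0% of all genes), 1 and 8 in ependymal cells (30.8% and 34.1%), 2 and 7 in neurons (40.4% and 41.3%), 1 and 7 in polydendrocytes (31.2% and 33.5%), 0 and 9 in oligodendrocytes (32.8% and 42.6%) and 0 and 8 in microglia (30.2% and 43.7%). The call for *Vegfb* in neurons, at 0.21 (SE 0.09, adjusted p = 0.044), was lost when WT_oil replicate 1, 2 or 3, WT_tamoxifen replicate 1, 4 or 5, or Esr1cKO_oil replicate 2 or 4 was left out. That for *Vegfc* in ependymal cells (log2 fold change -0.54, SE 0.24, adjusted p = 0.0486) was lost without WT_oil replicate 1 or 3, WT_tamoxifen replicate 3, or replicate 2, 3 or 4 of either Esr1cKO group.

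Within endothelial cells, *Vegfc* was higher and *Kdr* lower in the cells with arterial markers. A cluster of 347 cells was called arterial-like from 11 arterial markers, with *Cytl1* and *Fbln5*, a gene of elastic fibres, in the lead. In the 11 libraries with at least 10 of these cells, *Vegfc* had 77.5 to 458.5 CPM there and 15.2 to 120.2 CPM in the other endothelial cells, and was higher in 11 of 11 libraries (1.48 on the log2 scale, SE 0.21). *Vegfc* passed the filter on low counts here but not in every endothelial cluster, and its level was high in these cells. No p-value is therefore read for *Vegfc* from this fit. *Kdr* had 44.6 to 356.6 CPM in the arterial-like cells and 291.7 to 473.5 CPM in the others, and was lower in 11 of 11 libraries (log2 fold change -1.25, SE 0.16, adjusted p = 2.09e-09). Of 6 genes tested in this cluster, *Vegfc* and *Kdr* were the only ones called, against 6.63% of 4283 genes higher and 8.13% lower. Nothing is read from the call of *Vegfc*. Its border was not firm: when the clustering was repeated with another linear-algebra kernel, which differs in rounding only, the matching cluster held 200 cells, 199 of them shared, and in it *Vegfc* was higher by 1.46 and *Kdr* lower (-1.69 on the log2 scale), while *Flt1* was called as well (-0.49, SE 0.13, adjusted p = 0.00207). *Angpt1*, which was not tested there, had 49 UMIs, 85.3 CPM (95% Poisson interval 63.1 to 112.8 CPM), against 28.8 CPM in the other endothelial cells.

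A larger cluster of 636 cells, led by the smooth muscle genes *Acta2* and *Myh11*, was not named, since it held 9 mural and 7 arterial markers. There *Vegfc* had 72.1 to 272.7 CPM, against 8.75 to 87.8 CPM in the other endothelial cells, and was higher in 15 of 15 libraries (1.68 on the log2 scale, SE 0.13). *Kdr* had 68.3 to 207.1 CPM against 288.8 to 582.9 CPM, lower in 15 of 15 libraries without overlap (log2 fold change -1.89, SE 0.10, adjusted p = 9.36e-23). *Angpt1*, the mural ligand, was higher as well, by 2.20 (SE 0.20). It passed the filter on low counts here but not in the arterial-like cluster, and its level was high in these cells. No p-value is therefore read for *Angpt1* from this fit, nor for *Vegfc*, whose level was high in these cells too. Of 7 genes tested, 2 were higher and 5, namely *Kdr*, *Flt1*, *Nrp1*, *Tek* and *Tie1*, lower, against 14.7% and 16.4% of 4772 genes. The 2 higher genes were *Vegfc* and *Angpt1*, so nothing is read from the count of 2.

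In a cluster of 450 venous-like cells, led by *Darc* (*Ackr1*, a venous chemokine-binding receptor), *Kdr* was higher by 0.41 (SE 0.10, adjusted p = 0.0019) and *Tek* by 0.33 (SE 0.09, adjusted p = 0.00589), and *Nrp1* was lower (log2 fold change -0.55, SE 0.10, adjusted p = 4.28e-06). *Tie1* was higher by 0.36 (SE 0.13, adjusted p = 0.0381), a call lost without called doublets, without shared barcodes, and without WT_oil replicate 2 and Esr1cKO_tamoxifen replicate 2. That was 3 of 5 tested genes higher and 1 lower, against 9.25% and 9.74% of 3829 genes. *Vegfc* had 10 UMIs in these cells, 11.9 CPM (95% Poisson interval 5.73 to 21.97 CPM, counting error only), against 87.2 CPM in the other endothelial cells, and passed no filter for a test. The 2 largest clusters, led by *4930570N18Rik* and *Rgcc*, were not named. In the first, all 5 genes tested, *Flt1*, *Kdr*, *Nrp1*, *Tek* and *Tie1*, were higher by 0.21 to 0.54 (8.49% of 3720 genes were higher). In the second, *Flt1*, *Kdr*, *Nrp1* and *Tek* were higher by 0.25 to 0.56 and *Vegfc* was lower (log2 fold change -1.13, SE 0.21), of 6 genes tested, against 9.89% and 8.38% of 3699 genes. No p-value is read for *Vegfc* here either, and nothing from its call.

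A small cluster of 61 cells was called fenestrated-like from 3 markers, with *Plvap*, which encodes the diaphragm protein of fenestrated capillaries, and *Esm1* in the lead. Too few libraries held 10 of these cells for a test, so pooled levels are given with 95% Poisson intervals that cover counting error only. *Kdr* had 153 UMIs there, 1888 CPM (1601 to 2212 CPM), against 358 CPM in the other endothelial cells. *Nrp1* had 160 UMIs, 1975 CPM (1680.4 to 2305 CPM), against 489 CPM. *Flt1* had 3011 CPM (2645 to 3414 CPM) against 4251 CPM, and *Tek* 481 CPM (342 to 658 CPM) against 479 CPM. The intervals of *Kdr* and *Nrp1* lay above and that of *Flt1* below the level of the other endothelial cells, while that of *Tek* held it.

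The angiopoietin ligands were found in both kinds of mural cells. The 879 pericyte-like cells, led by *Kcnj8* and *Abcc9*, which form a potassium channel of pericytes, had 77.7 CPM of *Angpt1* (95% Poisson interval 52.4 to 110.9 CPM), 41.4 CPM of *Angpt2* (23.7 to 67.3 CPM) and 225 CPM of *Nrp1* (180.4 to 278 CPM). The 822 smooth muscle-like cells had 160.2 CPM of *Angpt1* (131 to 194 CPM), 61.2 CPM of *Angpt2* (43.5 to 83.7 CPM) and 81.7 CPM of *Nrp1* (60.98 to 107 CPM). This cluster was led by *Atf3* and other immediate early genes. These intervals cover counting error only, not the spread between mice. Those for *Angpt1* and *Nrp1* did not overlap between the 2 clusters and those for *Angpt2* did. No gene of the 10 passed the filter on low counts in these clusters, so none was tested.

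Among ependymal cells, *Vegfa* was lower in ciliated-like cells and higher in 1 tanycyte-like cluster, each against all other ependymal cells. In 1761 ciliated-like cells, led by *Ccdc153*, it had 0 to 24.1 CPM, against 24.6 to 216.5 CPM in the other ependymal cells. It was lower there in 16 of 16 libraries without overlap (log2 fold change -3.55, SE 0.20). In 147 tanycyte-like cells, led by *Scn7a* and with *Col25a1* among the leading genes, it had 255.4 to 837.3 CPM, against 22.1 to 101.6 CPM in the others. It was higher there in 7 of 7 libraries without overlap (3.33 on the log2 scale, SE 0.28). *Vegfa* was the only one of the 10 genes that passed the filter on low counts in either fit. Its level was high on 1 side only, so no p-value is read from these fits and nothing from the count. Of all genes tested, 36.5% of 2900 were lower in the ciliated-like cluster and 16.3% of 1907 higher in the *Scn7a*-led cluster. Tanycyte-like cells were not alike in *Vegfa*: a cluster of 812 cells led by *Slc1a2*, with 6 tanycyte and 5 astrocyte markers, had 122 CPM (95% Poisson interval 100.2 to 147 CPM), and 285 cells led by *Frzb* had 104 CPM (77.7 to 136 CPM), both without a test. The part of astrocyte RNA in the ependymal levels of *Vegfa* was not tested. *Angpt2* lay elsewhere: 14 of its 15 ependymal UMIs came from an unnamed cluster of 197 cells led by *Chga*, with the pituitary hormone genes *Tshb* and *Cga* among its leading genes, at 58.0 CPM (31.7 to 97.2 CPM) against 0.198 CPM in the other ependymal cells.

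**Figure D3:**
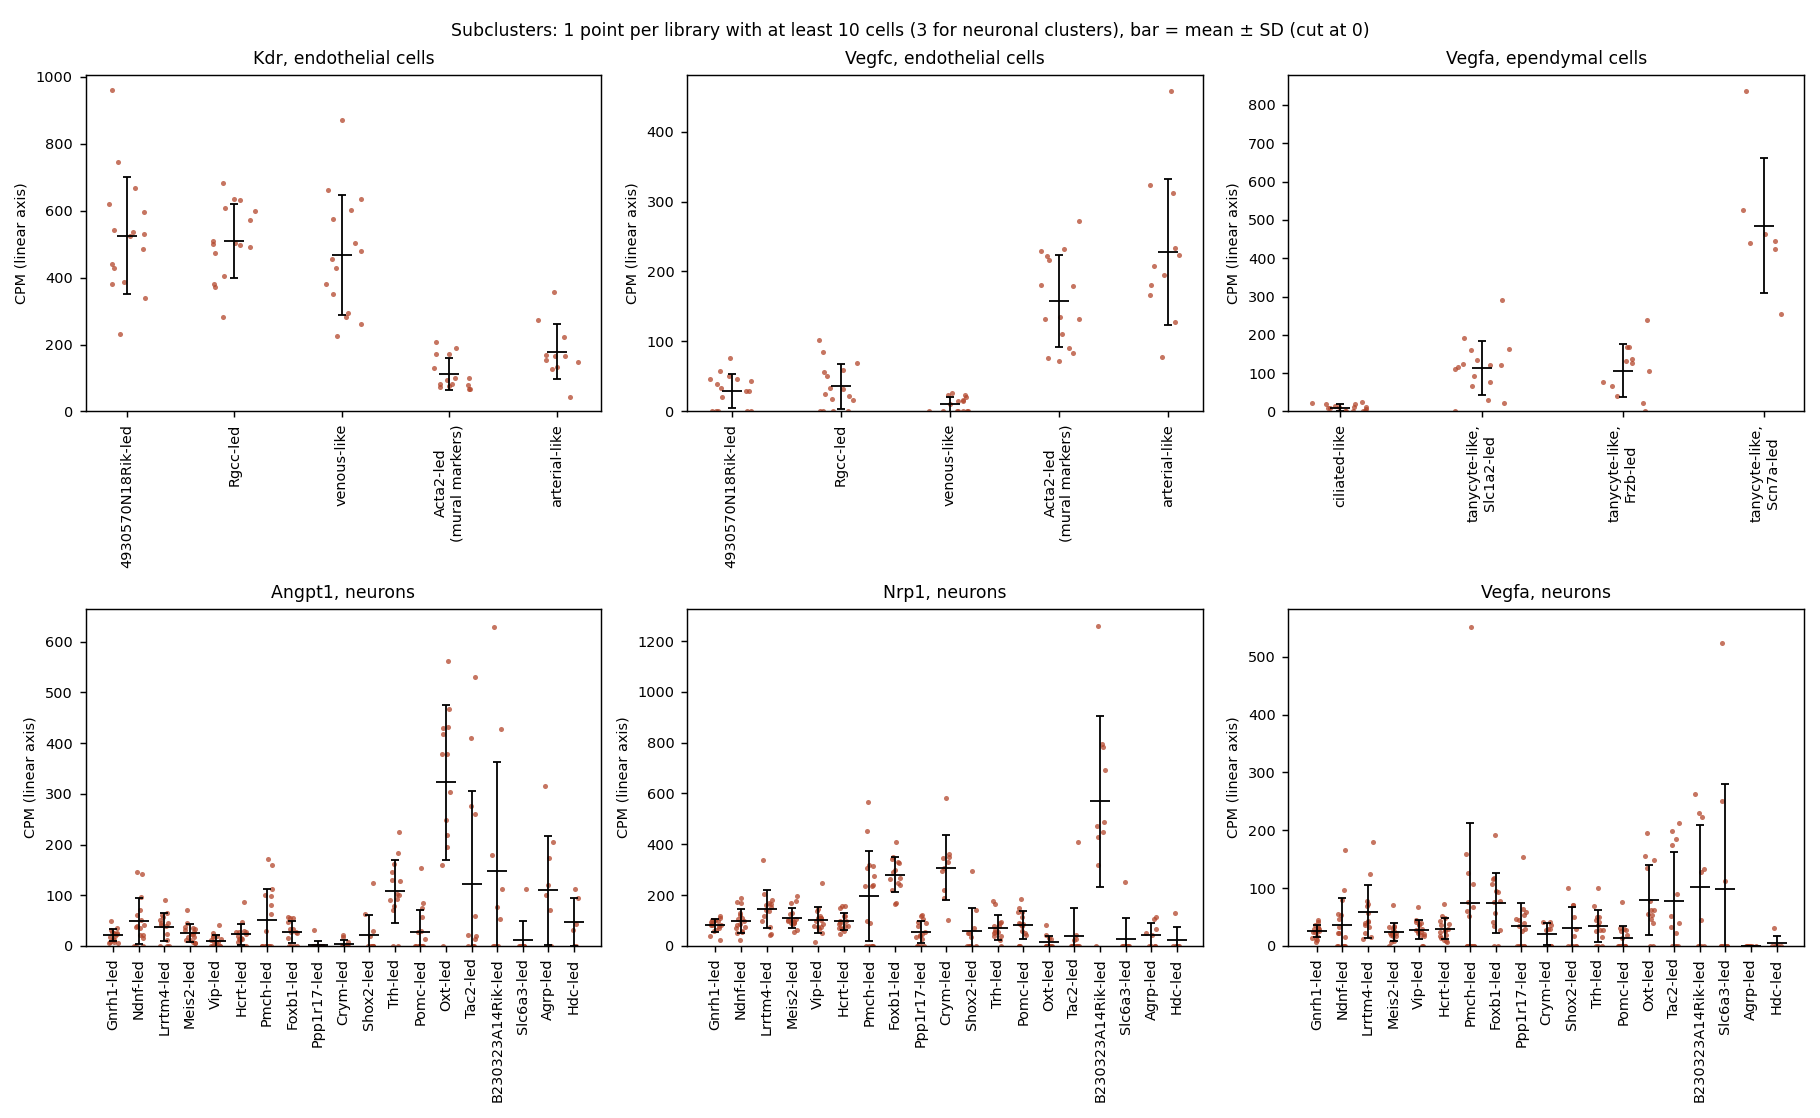
Levels, in CPM on the vertical axis, in the clusters within endothelial cells, ependymal cells and neurons; each point is 1 library with enough cells of the cluster (10, or 3 for neuronal clusters) and each bar the mean ± SD, cut at 0. *Vegfc* is high and *Kdr* low in the arterial-like and the *Acta2*-led cells, *Vegfa* is lowest in ciliated-like and highest in *Scn7a*-led ependymal cells, and the mean of *Angpt1* is highest in the *Oxt*-led neurons. Clusters are named by a leading gene or by their markers. Neuronal clusters that were not tested or held 4 or more markers of another class are left out.

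Neurons were not uniform in *Angpt1* and *Nrp1*. The *Oxt*-led cluster, 143 cells with the hormone genes *Oxt* and *Avp* in the lead, had 0 to 561.3 CPM of *Angpt1*, with a mean of 322.4 ± 152.9 CPM (SD, n = 13), against 14.5 to 44.0 CPM in the other neurons. It was higher in 12 of 13 libraries, and WT_tamoxifen replicate 3, with 3 cells, had none (3.56 on the log2 scale, SE 0.19, adjusted p = 1.07e-72). *Angpt1* was also among the 10 leading genes of this cluster. The same cells had more *Vegfa*, 79.4 ± 60.8 CPM against 32.4 ± 6.5 CPM (1.24, SE 0.30, adjusted p = 0.00049), and less *Nrp1*, 13.9 ± 24.9 CPM against 112.1 ± 18.2 CPM, lower in 13 of 13 libraries (-3.06 on the log2 scale, SE 0.41, adjusted p = 2.69e-12). Of 4 genes tested, 3 were higher, *Vegfb* being the other (0.91, SE 0.29, adjusted p = 0.0122, and 0.81 without a call when both libraries that stood apart were left out), and 1 was lower, against 6.41% and 14.9% of 7455 genes.

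The *Trh*-led cluster of 191 cells, named for thyrotropin-releasing hormone, had 107.6 ± 62.2 CPM of *Angpt1* (SD, n = 14) against 37.8 ± 14.4 CPM in the other neurons and was higher in 12 of 14 libraries (1.58, SE 0.24, adjusted p = 6.23e-09). *Angpt1* was lower in the *Crym*-led cluster, at 4.55 ± 8.11 CPM (SD, n = 10; log2 fold change -2.26, SE 0.49, adjusted p = 6.22e-05), the *Gnrh1*-led cluster (-1.14, SE 0.18, adjusted p = 1.37e-06) and the *Meis2*-led cluster (-0.99, SE 0.20, adjusted p = 0.00011). It was not the only gene that was lower in the last 2 clusters. In the *Gnrh1*-led cluster 3 of the 4 genes tested were lower, *Nrp1* (-0.50, SE 0.10, adjusted p = 0.000181) and *Vegfa* (-0.60, SE 0.17, adjusted p = 0.00616) among them, where 13.4% of all genes tested were lower. In the *Meis2*-led cluster 2 of 4 were lower, with *Vegfa* the other (-0.76, SE 0.20, adjusted p = 0.00283), where 9.24% of all genes were.

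*Nrp1* had another order among neurons. It was higher in the *Foxb1*-led cluster of 278 cells, at 165.9 to 407.6 CPM against 71.5 to 137.7 CPM in the other neurons, in 14 of 14 libraries without overlap (1.43, SE 0.15, adjusted p = 2.31e-16). *Foxb1* is a transcription factor of mammillary neurons. *Vegfa* was higher there too, at 74.0 ± 52.3 CPM against 34.4 ± 9.0 CPM (SD, n = 14) and in 12 of 14 libraries (1.05, SE 0.25, adjusted p = 0.000499). *Nrp1* was higher in the *Crym*-led cluster as well, at 308.0 ± 127.4 CPM (SD, n = 10) and in 9 of 10 libraries (1.49, SE 0.18, adjusted p = 1.05e-14). The mean was highest in the *B230323A14Rik*-led cluster of 100 cells, at 569 ± 337 CPM (SD, n = 10), higher in 9 of 10 libraries (1.42, SE 0.29, adjusted p = 4.62e-06) from 67 UMIs in all. The log2 fold change there was not above those of the *Foxb1*-led and *Crym*-led clusters. The *Lrrtm4*-led cluster had 145 ± 74 CPM (SD, n = 14; 0.55, SE 0.16, adjusted p = 0.00103). *Nrp1* was lower in the *Tac2*-led cluster (-2.66, SE 0.44, adjusted p = 6.46e-08), from 9 UMIs, and in the *Shox2*-led cluster (-1.44, SE 0.39, adjusted p = 0.00387). *Vegfa* had no UMI in the 65 cells of the *Agrp*-led cluster, which allows up to 15.9 CPM (95% Poisson limit). Of the 10 genes, 5 were tested in this cluster, with 1 called higher and 2 lower. Of all 7870 genes tested there, 705 were called, 75 of them higher. The genes called higher than in the other neurons were 1.18% of all genes tested in the *Trh*-led, 7.78% in the *Crym*-led, 9.84% in the *Foxb1*-led, 4.72% in the *B230323A14Rik*-led and 37.8% in the *Lrrtm4*-led cluster, and those called lower were 13.4% in the *Gnrh1*-led, 9.24% in the *Meis2*-led, 13.4% in the *Crym*-led, 11% in the *Tac2*-led and 8.69% in the *Shox2*-led cluster.

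Patterns across the 9 cell types were compared by Pearson's r of log2 mean CPM over 12750 genes, as a description of 9 points that share libraries. The gene most like *Flt1* was *Ly6c1* (r = 0.996), a surface antigen of brain endothelium, followed by *Ly6a* and by *Kdr* (r = 0.991). *Vegfa* was most like *Gyk*, *Pou3f4* and *Ccbl1* (r = 0.963 to 0.967), and *Tek* most like *Degs2*, *Bsg* and *Mageb18* (r = 0.989 to 0.994). *Angpt1* had *Pgf* among its 3 nearest genes (r = 0.950). *Nrp1* had only 1 gene above 0.9, *Dennd6a* (r = 0.938). The 3 nearest genes were *Zfp641*, *Dpy19l3* and *Sall2* for *Vegfb*, *Rem1*, *C1s* and *Perp* for *Angpt2*, and *8430408G22Rik*, *Adcy4* and *Sema3g* for *Tie1*.

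Other genes of the pathway, from lists fixed by symbol, were in many cases endothelial too, in the same fits. Of the other family genes, 5 of 6 tested were higher in endothelial cells and 1 lower, where 36.2% of all genes tested in this type were higher and 40.3% lower. *Ptprb*, the phosphatase that opposes Tie2, had 1462 ± 229 CPM (SD, n = 16) there (6.02 on the log2 scale, SE 0.14, adjusted p = 1.93e-26), and *Flt4*, which encodes VEGFR3, 61.1 ± 10.6 CPM (5.38, SE 0.17, adjusted p = 1.82e-23). *Pgf*, the placental growth factor that binds VEGFR1, was highest in mural cells, at 122.8 ± 55.7 CPM (3.23, SE 0.17, adjusted p = 3.63e-80). Of the Notch and sprouting genes, 11 of 12 tested were higher in endothelial cells and 1 lower, with a median log2 fold change of 3.22. These include *Eltd1* (*Adgrl4*), an adhesion receptor of endothelium, at 764 ± 154 CPM (6.69, SE 0.10, adjusted p = 9.63e-32), while *Hes1*, a Notch target, was highest in mural cells, at 552 ± 201 CPM. Of the VEGF and Tie2 signalling genes, 9 of 13 tested were higher in endothelial cells and 3 lower, with a median of 0.82.

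The hypoxia lists were divided between cell types. Of the hypoxia factors, 5 of 7 tested were higher and 2 lower in endothelial cells, and 5 of 7 higher and 1 lower in astrocytes, where 36.2% and 40.3% of all genes in endothelial cells and 31.9% and 41.5% in astrocytes were higher and lower. *Epas1*, which encodes HIF-2 alpha, was highest in endothelial cells, at 1112 ± 135 CPM (4.40, SE 0.08, adjusted p = 4.88e-29), whereas *Hif1a* and *Hif3a* were highest in astrocytes, at 155.4 ± 32.7 CPM (1.19, SE 0.08, adjusted p = 5.64e-17) and 55.8 ± 25.2 CPM (4.53, SE 0.15, adjusted p = 2.39e-27). Of the hypoxia targets, 9 of 12 tested were higher and 3 lower in endothelial cells, and 6 of 11 higher and 5 lower in astrocytes. They were also divided in ependymal cells, with 6 of 11 higher and 3 lower (30.8% and 34.1% of all genes), and in neurons, with 3 of 12 higher and 7 lower (40.4% and 41.3%). The glucose transporter gene *Slc2a1* was highest in endothelial cells, at 1337 ± 254 CPM, and *Ndrg1* in oligodendrocytes, at 805 ± 97 CPM.

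**Figure D4:**
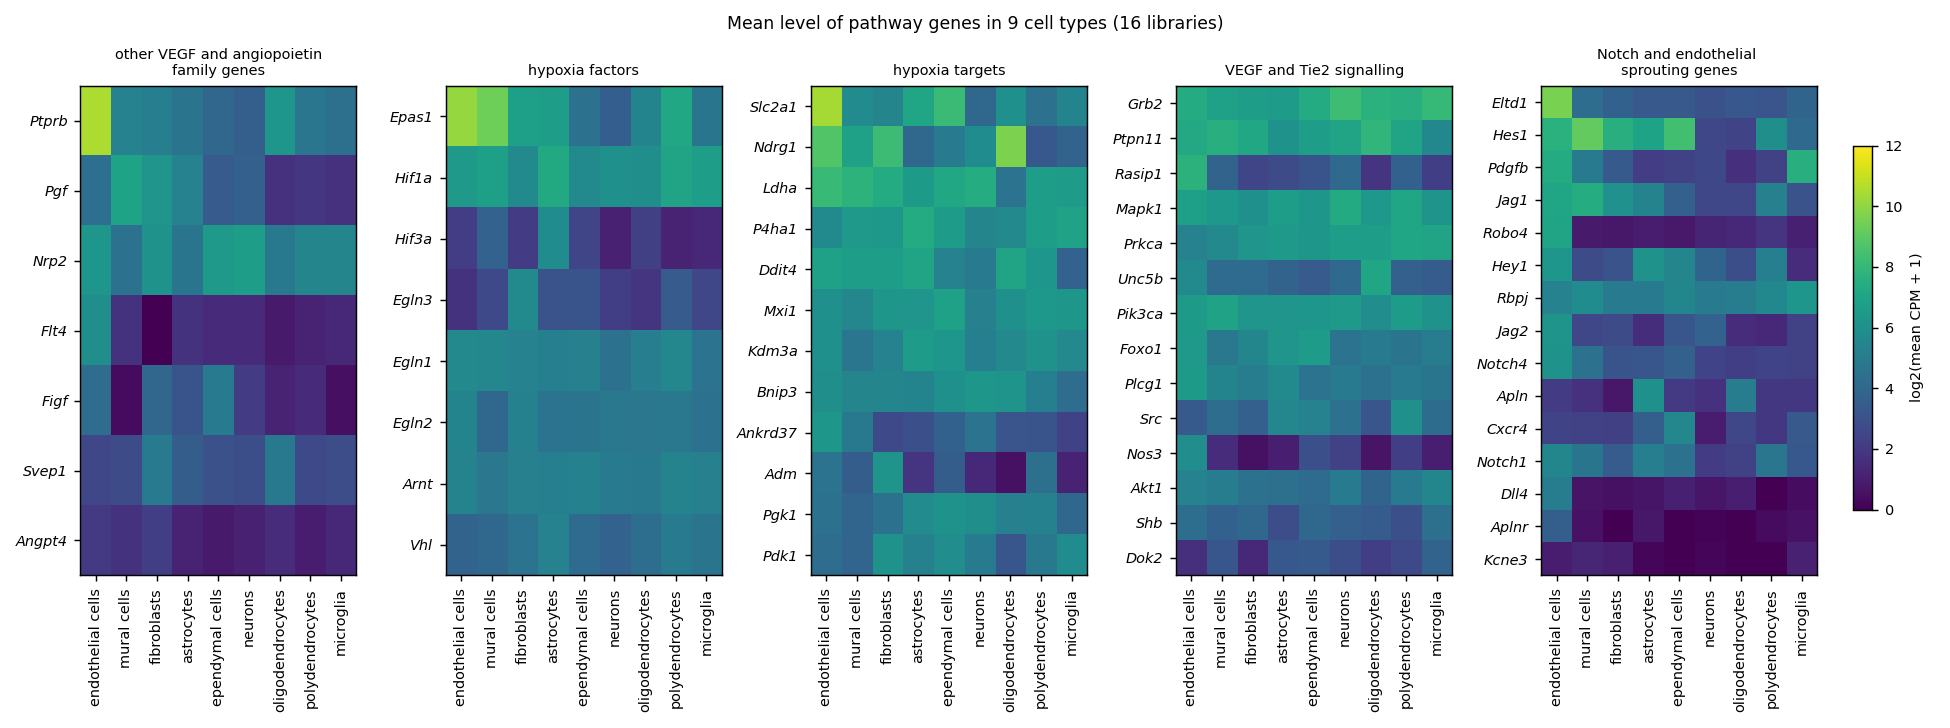
Heat map of the listed pathway genes (rows, 1 panel per list) in the 9 cell types (columns), coloured by log2(mean CPM + 1) over 16 libraries. *Ptprb*, *Epas1*, *Slc2a1* and *Eltd1* are highest in endothelial cells, *Pgf* and *Hes1* in mural cells, and *Hif1a* and *Hif3a* in astrocytes.

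The study asked what tamoxifen changes in each cell type and whether the changes need *Esr1*. No level of the 10 genes passed the test between groups in any cell type. In each of 5 comparisons (the tamoxifen effect in each genotype, the difference of these effects, and Esr1cKO against wild-type mice under oil and under tamoxifen), 38 tests of a gene in a type were possible. None passed an adjusted p of 0.05 in the edgeR quasi-likelihood fit, where 0.000307% of the 325915 tests over all genes did, and 0 passed in the DESeq2 test. At an unadjusted p under 0.05 there were 11 of the 190 tests, beside 3.95% of the tests over all genes. The groups of libraries did not overlap in 3, 1, 4 and 3 of the 38 tests of the tamoxifen effect in wild-type mice, that in Esr1cKO mice, and the genotype under oil and under tamoxifen, beside 3.40%, 2.44%, 5.56% and 1.47% of all tests. The p-values measure the spread between mice, of which a group held 3 to 5.

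The smallest p was that of *Vegfa* in neurons of wild-type mice. WT_oil neurons had 63.7, 53.9 and 44.1 CPM of *Vegfa*, and WT_tamoxifen neurons 31.9, 37.8, 31.3, 27.2 and 21.6 CPM. Every tamoxifen sample was below every oil sample, with a log2 fold change of -0.83 (SE 0.20, edgeR unadjusted p = 0.000715, adjusted p = 0.9997). Without the 2 libraries that stood apart, the value was -0.93, and without shared barcodes -0.86. In Esr1cKO mice, neurons had 27.7, 31.3, 40.2 and 42.3 CPM under oil and 26.8, 40.4, 37.8 and 37.5 CPM under tamoxifen, and these overlapped. The difference of the tamoxifen effects was 0.81 (SE 0.29, adjusted p = 0.94), and Esr1cKO_oil was below WT_oil without overlap (-0.54, SE 0.21). The summed level of the 12 astrocyte markers in neurons was 438 to 638 CPM in WT_oil and 484 to 724 CPM in WT_tamoxifen, and its part in the *Vegfa* values was not tested. The barcodes with few genes had 35.1 ± 13.5 CPM (SD, n = 14) of *Vegfa*, and the part of free RNA in the neuronal values was not tested either.

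*Kdr* in endothelial cells had 531.0, 400.3 and 443.7 CPM in WT_oil, 246.4, 367.9, 394.3, 429.2 and 341.8 CPM in WT_tamoxifen, 263.0, 341.5, 284.6 and 380.1 CPM in Esr1cKO_oil, and 438.9, 315.5, 378.6 and 377.2 CPM in Esr1cKO_tamoxifen. Esr1cKO_oil lay below WT_oil without overlap (log2 fold change -0.50, SE 0.19, edgeR adjusted p = 0.935), and the other groups overlapped with their neighbours. *Flt1* in endothelial cells averaged 4689 ± 74 CPM (SD, n = 3) in WT_oil, 3951 ± 359 CPM (n = 5) in WT_tamoxifen, 4143 ± 604 CPM (n = 4) in Esr1cKO_oil and 4234 ± 568 CPM (n = 4) in Esr1cKO_tamoxifen. The 3 WT_oil samples, 4764, 4616 and 4688 CPM, were above all 5 WT_tamoxifen samples, 3655 to 4486 CPM (log2 fold change -0.25, SE 0.15), and all 4 Esr1cKO_oil samples, 3294 to 4615 CPM (-0.16, SE 0.16). *Nrp1*, *Tek* and *Tie1* in endothelial cells had group means of 478 to 583, 441 to 516 and 190 to 224 CPM, and no pair of groups was without overlap. The summed markers of red blood cells in the endothelial class were 7999 to 37132 CPM in WT_oil and 26159 to 36639 CPM in WT_tamoxifen, and their part in these values was not tested.

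The remaining values with an unadjusted p under 0.05 were scattered over genes and types. *Vegfb* in ependymal cells had 31.8 to 35.0 CPM in WT_oil and 51.2 to 62.4 CPM in WT_tamoxifen (0.74, SE 0.26). Esr1cKO_oil, at 41.1 to 54.8 CPM, was above every WT_oil sample as well (0.51, SE 0.28, unadjusted p = 0.111 in edgeR), and Esr1cKO_tamoxifen had 51.7 to 74.4 CPM. *Flt1* in ependymal cells had 0 to 40.9 CPM in Esr1cKO_tamoxifen and 46.2 to 70.1 CPM in Esr1cKO_oil (-0.81, SE 0.37) and 58.3 to 116.0 CPM in WT_tamoxifen (-1.21, SE 0.34), all below the 230.6 CPM of the barcodes with few genes. *Angpt1* in mural cells had 182.0 to 214.3 CPM in Esr1cKO_tamoxifen and 54.9 to 152.0 CPM in WT_tamoxifen (0.72, SE 0.31), from 2 to 35 UMIs per library in these groups. For *Flt1* in microglia the tamoxifen effect in wild-type mice was 1.23 (SE 0.49), for *Vegfa* in polydendrocytes the genotype effect under tamoxifen 0.71 (SE 0.29), and for *Kdr* in endothelial cells the difference of the tamoxifen effects 0.59 (SE 0.25), with overlapping groups in the first 2. These 3 values depended on the processing: the first was 2.31 in cells with more than 500 genes, the second 0.45 without both libraries that stood apart and 0.47 without Esr1cKO_tamoxifen replicate 3, and the third 0.26 with under 5% mitochondrial UMIs.

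**Figure D5:**
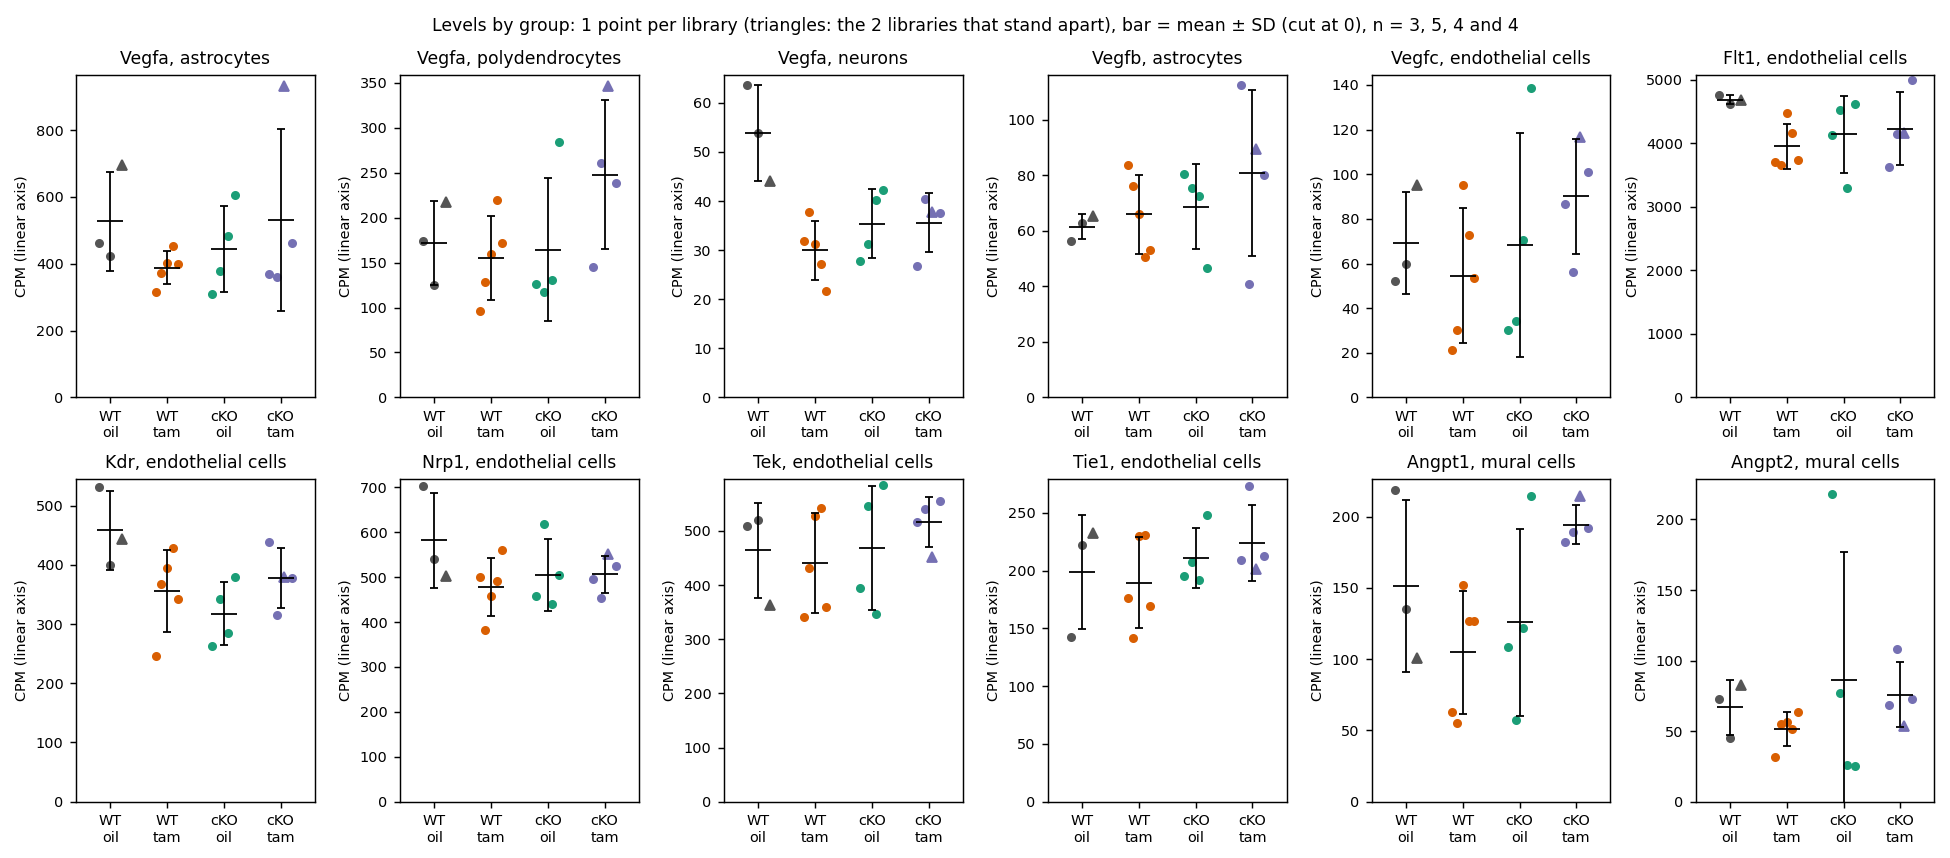
Levels in the cell type where each gene was highest, and of *Vegfa* also in polydendrocytes and neurons, in CPM on the vertical axis, by group; each point is 1 mouse, triangles are the 2 libraries that stood apart, and each bar the mean ± SD over 3 (WT_oil), 5 (WT_tamoxifen), 4 (Esr1cKO_oil) and 4 (Esr1cKO_tamoxifen) mice, cut at 0. Most groups overlap, while *Flt1* in endothelial cells and *Vegfa* in neurons lie higher in the 3 WT_oil mice than in the 5 WT_tamoxifen and the 4 Esr1cKO_oil mice. *Kdr* in endothelial cells lies higher in WT_oil than in Esr1cKO_oil mice, and *Angpt1* in mural cells higher in Esr1cKO_tamoxifen than in WT_tamoxifen mice.

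The pathway lists gave the same count of calls between groups. Over the 5 comparisons and all types, 0 of 105 tests of the other family genes, 0 of 195 of the hypoxia factors, 0 of 360 of the hypoxia targets, 0 of 345 of the VEGF and Tie2 signalling genes and 0 of 195 of the Notch and sprouting genes passed in the edgeR fit. At an unadjusted p under 0.05 there were 3, 7, 19, 20 and 4, beside 3.95% of the tests over all genes, and the DESeq2 test called 0 of 1200.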

How the data were processed

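Cells of the hypothalamus and preoptic area of 16 female mice were profiled by Drop-seq, with 1 library per mouse in 4 groups taken from the sample labels. The authors deposited a table of UMI counts per gene and barcode for each library, not normalised. The submitters' processing notes name the mm10 build, STAR 2.6 and Seurat with the number 3.6.1, which the methods of the study give as the version of R. There, Seurat aligned the groups and clustered the cells, and the roles of mm10 and STAR are not given in the sources used here. Barcodes were kept as cells if they held over 200 genes, less than 4000 genes, and mitochondrial UMIs below 15%, which gave 8220, 21587, 13262 and 12606 cells for WT_oil, WT_tamoxifen, Esr1cKO_oil and Esr1cKO_tamoxifen. The study states the same numbers for both wild-type groups. Totals of 2634253 to 8038158 UMIs per library, of which 48.9% to 76.8% lay in kept cells, set the precision, and intervals cover counting error only.

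Libraries were joined by the anchors of Seurat 5.3.0 with 2000 variable genes, of which the 10 genes and the pathway lists were left out (1986 remained), 20 principal components and a resolution of 0.05. Types were named from fixed marker lists. Clusters within a type used a resolution of 0.3, and 0.7 in neurons. They were repeated with another OpenBLAS kernel as an alternative. Doublets were called with Scrublet (scanpy 1.11.5) in 476 cells and removed only as an alternative. UMIs were summed per library and type (at least 10 cells, 3 in neuronal clusters) and tested across all genes with edgeR 4.0.16 (quasi-likelihood, TMM scaling, filter on low counts, Benjamini-Hochberg adjustment within each fit, threshold 0.05) in R 4.3.3. Types were compared with the library as a block, and groups in 1 fit of all 4 groups without it. DESeq2 1.42.0 was an alternative. Scripts were tested on simulated data: of genes changed by 2 on the log2 scale, 83.0% were called for tamoxifen in wild-type endothelial cells and 82.9% in neurons, and of genes changed by 1, 20.7% and 36.2%. Each simulated fit held 200 changed genes, counts were drawn independently, and no library stood apart. These shares therefore need not hold for the fits of the real data.

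The 10 genes and the lists were chosen with earlier results of these data known. Genes named beside the 10 are the 3 most alike across types (not reported here for every gene) and up to 4 genes of each pathway list with the highest CPM in any type. Gene positions are from GENCODE vM21 (GRCm38). Alternatives covered scaling, the filter on low counts, cell filters, doublets, shared barcodes, mixed clusters, libraries left out and blocks.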

Additional observations from a re-analysis of the deposited data

Results flagged for a closer look

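In 3 of 72 groups of 4 or 5 mice, over 24 pairs of a gene and a type, the highest library lay far from the others of its group by Dixon's criterion, which chance gives in about 1 of 20 groups. *Vegfa* in polydendrocytes was 283.8 CPM in Esr1cKO_oil replicate 4, from 89 UMIs, where the other 3 mice of the group had 116.9 to 130.8 CPM. That library was one of the 4 that share many barcodes. *Flt1* in ependymal cells was 116.0 CPM in WT_tamoxifen replicate 1, from 13 UMIs, where the other 4 mice had 58.3 to 73.0 CPM. *Tie1* in endothelial cells was 272.8 CPM in Esr1cKO_tamoxifen replicate 2, from 102 UMIs, where the other 3 mice had 200.9 to 213.0 CPM.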

How the results depend on the processing

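Each gene's difference between its leading type and the other cells kept its direction and call in edgeR or DESeq2 under every alternative in which the gene was tested. Apart from leaving out 1 library, these were 11 alternatives for *Angpt2* and 13 for each other gene. Where the filter on low counts was used, the call for *Angpt2* is not read as support, since the gene passed through its mural level. The log2 fold change ranged over 4.59 to 7.34 for *Flt1*, 4.79 to 6.65 for *Kdr*, 4.10 to 5.75 for *Tek*, 4.34 to 6.73 for *Tie1*, 2.34 to 2.73 for *Nrp1*, 2.20 to 3.5997 for *Vegfc*, 3.41 to 3.68 for *Vegfa*, 1.02 to 1.21 for *Vegfb*, 2.002 to 2.54 for *Angpt1* and 3.79 to 4.55 for *Angpt2*. The lowest values of *Flt1*, *Tie1* and *Vegfc* came with a clustering resolution of 0.5. There, a cluster of 1535 cells, higher in 12 endothelial and 12 mural markers, had no name and was counted among the other cells. Its part in these values was not tested. The sign turned for *Nrp1* in microglia (0.054 with under 5% mitochondrial UMIs), *Vegfa* in ependymal cells (0.091 with more than 500 genes per cell) and *Vegfc* in ependymal cells (0.14 without mixed clusters), and the cause was not tested. Shares of cells with a UMI moved when cells were thinned to 500 UMIs, to 84.9% for *Flt1*, 17.6% for *Kdr*, 21.5% for *Nrp1*, 19.1% for *Tek*, 10.2% for *Tie1* and 2.67% for *Vegfc* in endothelial cells, 19.8% for *Vegfa* and 3.31% for *Vegfb* in astrocytes, and 6.14% for *Angpt1* in mural cells. Cells with under 500 UMIs were left out of these shares, so they do not cover the same cells. They were 2386 of 8220 in WT_oil, 7880 of 21587 in WT_tamoxifen, 3960 of 13262 in Esr1cKO_oil and 4161 of 12606 in Esr1cKO_tamoxifen. Between groups, 0 of the tests of the 10 genes were called under any alternative, including DESeq2, and the sign changed in at most 41 of 190, without both libraries that stood apart. Pairing by replicate number was not established: the numbers follow accession order, and the correlation of deviations had medians of 0.35, 0.19, 0.069 and 0.28 within numbers 1 to 4 and -0.11 between numbers, but went down to -0.13 within number 3. The methods spread the groups over days that the labels do not name. The replicate block gave 0 calls among the 190 tests and changed 17 signs, and a block of successive fours of library numbers gave 0 and changed 15. These blocks are nearly the same, since only WT_tamoxifen replicate 5 is placed differently. The libraries that share many barcodes are numbers 13 to 16, the last of the fours. Over all genes, the calls in the tamoxifen effect in wild-type mice, that in Esr1cKO mice, their difference, and the genotype under oil and under tamoxifen were 0, 0, 0, 0 and 1, against 54, 79, 133, 64 and 66 with no filter on low counts, 5, 2, 16, 3 and 13 without both libraries that stood apart, 1, 3, 4, 1 and 6 with under 5% mitochondrial UMIs, and 1, 0, 0, 2 and 2 by DESeq2. With another linear-algebra kernel, the clusters within a type had an adjusted Rand index of 0.899 to 0.995 with those reported; 56 of the 58 calls of the 10 genes in them were kept, 2 were lost, 0 were reversed and 3 were gained. That repeat and the leaving out of those 2 libraries, of shared barcodes and of mixed clusters were chosen after seeing the data.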
